A study of Mus musculus with 12 samples.

Results

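Immediate early genes are transcribed within minutes of a stimulus without new protein synthesis, and 10 of them were followed here in inguinal white adipose tissue (WAT): the orphan nuclear receptors Nr4a1, Nr4a2 and Nr4a3, the AP-1 subunits Fos, Fosb, Jun and Junb, the zinc finger factors Egr1 and Egr2, and the stress-induced bZIP factor Atf3. The members were chosen by name, through the probe sets whose single gene symbol is theirs, and the choice was made with the genotype contrast of these same arrays already known. For that reason their differences between genotypes are given as a description, without a test. Each member had 1 probe set, and all 10 were among the 14550 genes that passed the filter on low signals, of 22180 genes that had a probe set with a single symbol.

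Inguinal fat of 6 R6/2 mice and of 6 wild type (WT) littermates was profiled, with 1 array per mouse. R6/2 mice carry a transgene with exon 1 of human huntingtin and an expanded CAG repeat, and serve as a fast model of Huntington's disease; the truncated transgene leaves both mouse huntingtin alleles in place. All mice were untreated males of 12 weeks on the C57BL/6 background, killed by cervical dislocation, and the pads were snap frozen. The hour of day at which each mouse was killed is not given in the sources used here. Values are log2 signals of an Affymetrix mouse gene array, on which a difference of 1 is a factor of 2, and a signal of one gene cannot be set against that of another.

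In a resting cell the promoters of these genes are held ready by factors that are already present. Growth factor and stress kinases act through the serum response factor and its partners, and hormones that raise cyclic AMP act through CREB, which binds the cAMP response element (CRE). The proteins then act as transcription factors themselves: FOS and JUN proteins pair as AP-1, EGR proteins bind GC-rich sites, and NR4A proteins bind as receptors without a known hormone. In fat, adrenergic signals and cold are known to induce Nr4a genes, and dissection or handling of tissue can induce Fos, Jun and Egr1.

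The stretch of 250 bases before the transcription start was available for 9 of the 10 members in a RefSeq table for the build GRCm38.p6. The short form of the CRE, TGACG or its reverse complement CGTCA, was searched on both strands, since CREB can bind it. The windows of the 3 Nr4a genes and of Fos, Fosb and Atf3 are shown because these genes had the largest differences between genotypes, and capitals mark each short CRE. They lie at chr15:101266596-101266845 (Nr4a1, plus strand), chr2:57124004-57124253 (Nr4a2, minus strand), chr4:48045055-48045304 (Nr4a3, plus strand), chr12:85473640-85473889 (Fos, plus strand), chr7:19310046-19310295 (Fosb, minus strand) and chr1:191183334-191183583 (Atf3, minus strand), each printed 5′ to 3′ on the strand of its gene.
Nr4a1: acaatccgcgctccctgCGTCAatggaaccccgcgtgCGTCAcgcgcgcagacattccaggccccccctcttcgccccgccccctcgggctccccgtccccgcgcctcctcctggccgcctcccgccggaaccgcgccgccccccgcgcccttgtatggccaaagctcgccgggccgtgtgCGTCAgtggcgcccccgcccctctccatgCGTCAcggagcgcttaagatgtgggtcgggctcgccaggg
Nr4a2: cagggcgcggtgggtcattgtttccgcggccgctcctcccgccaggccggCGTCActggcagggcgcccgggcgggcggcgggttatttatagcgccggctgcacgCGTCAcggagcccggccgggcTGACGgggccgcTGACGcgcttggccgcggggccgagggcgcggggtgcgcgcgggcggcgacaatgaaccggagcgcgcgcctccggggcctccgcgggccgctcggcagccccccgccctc
Nr4a3: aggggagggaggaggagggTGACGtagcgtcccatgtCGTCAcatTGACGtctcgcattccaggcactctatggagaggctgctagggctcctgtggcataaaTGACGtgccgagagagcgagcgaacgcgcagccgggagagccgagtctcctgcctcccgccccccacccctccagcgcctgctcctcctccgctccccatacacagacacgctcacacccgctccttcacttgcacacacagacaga
Fos: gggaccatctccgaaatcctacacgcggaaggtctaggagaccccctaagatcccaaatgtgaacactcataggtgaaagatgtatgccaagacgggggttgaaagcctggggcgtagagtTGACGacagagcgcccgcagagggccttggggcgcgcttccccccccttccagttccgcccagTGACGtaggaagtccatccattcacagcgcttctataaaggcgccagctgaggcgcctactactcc
Fosb: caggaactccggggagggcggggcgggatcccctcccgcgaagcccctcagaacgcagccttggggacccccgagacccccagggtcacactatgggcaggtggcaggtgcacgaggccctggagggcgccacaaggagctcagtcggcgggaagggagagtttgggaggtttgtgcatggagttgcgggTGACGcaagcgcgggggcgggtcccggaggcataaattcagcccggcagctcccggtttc
Atf3: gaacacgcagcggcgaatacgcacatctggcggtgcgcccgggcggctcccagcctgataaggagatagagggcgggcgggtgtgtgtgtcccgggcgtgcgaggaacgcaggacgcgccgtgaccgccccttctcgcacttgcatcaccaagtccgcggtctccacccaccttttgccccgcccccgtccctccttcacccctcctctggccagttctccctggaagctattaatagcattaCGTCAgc

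Each of the 3 Nr4a windows held 4 short CREs, a number reached by 39 of the 27025 mouse promoters in the table (0.144%). In Nr4a1 they began 233, 213, 69 and 40 bases before the start, in Nr4a2 200, 144, 123 and 111 bases before it, and in Nr4a3 231, 213, 205 and 147 bases before it. Fos held 2, the nearer one beginning 66 bases before the start, and Fosb held 1 that began 60 bases before it. Junb and Atf3 held 1 each, while Jun and Egr2 held none, so that 7 of 9 members had at least 1 against 17.8% of all promoters. The members' windows were rich in G and C, between 58.4% for Fos and 80.0% for Nr4a2 against a median of 52.0% over all promoters, and motifs that contain CG are more common in such sequence.

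Other patterns were scarcer. The complete CRE TGACGTCA, which contains the short form on both strands, was in 0 of 9 member windows and 1.6% of all promoters. The AP-1 site TGANTCA was likewise in 0 of 9 and 6.85%, the CArG box of the serum response factor in 0 of 9 and 1.41%, and AAAGGTCA, the site that NR4A proteins bind as monomers, in 0 of 9 and 1.31%. The EGR site GCGNGGGCG was found in Nr4a1, Nr4a2 and Fosb, against 4.63% of all promoters, and overlapped none of the short CREs. A match is a letter pattern only, and these windows do not reach sites farther upstream.

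The 12 arrays had medians between 5.75 and 5.87, and pairs of arrays correlated over the 14550 genes with r between 0.783 and 0.982. By their markers the pads differed in content. The mean of 15 lymphocyte markers lay between 5.33 and 5.57 in WT mouse 4 and R6/2 mice 3 and 4, and between 7.59 and 10.02 in the other 9 pads. The mean of 20 skeletal muscle markers ranged from 5.82 to 10.1 in WT and from 5.82 to 10.4 in R6/2 pads, and all 20 had higher means in R6/2. All 17 macrophage markers had lower means in R6/2, and their joint mean was 8.47 ± 0.36 in WT and 7.94 ± 0.41 in R6/2 (SD, n = 6 each). The mature adipocyte markers were high in every pad, with a mean of 15 genes between 10.7 and 11.6. In whole pads, fewer cells of a type and less RNA per cell cannot be told apart.

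The Nr4a receptors had higher mean signals in R6/2 than in WT pads, and they were the only members whose means were higher by more than 0.05. Nr4a2, the receptor known for its role in dopamine neurons, ranged from 6.18 through a median of 6.53 to 6.72 in WT and from 6.74 through 7.06 to 7.39 in R6/2 mice. Every R6/2 mouse was above every WT mouse, though the highest WT and the lowest R6/2 value were only 0.02 apart. The means were 6.46 ± 0.22 and 7.05 ± 0.22 (SD, n = 6 each), a difference of 0.59 with a standard error of 0.12, or 1.5 times. Nr4a2 was the only one of the 10 members whose genotypes did not overlap; over all genes tested 0.199% did not overlap with all R6/2 values higher and 0.186% with all R6/2 values lower. Since the members were chosen with this contrast known, nothing is read from that count, and after a second quantile normalization of the arrays the ranges of Nr4a2 overlapped and the count was 0.

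Nr4a1, which encodes the receptor NUR77, ranged from 6.68 through 7.60 to 8.0 in WT and from 7.16 through 7.98 to 8.99 in R6/2 mice. R6/2 mice 2, 3 and 5 were above every WT mouse, with 8.99, 8.97 and 8.14, while R6/2 mice 1 and 4 lay within the WT range with 7.16 and 7.39. The means were 7.49 ± 0.47 and 8.08 ± 0.78 (SD, n = 6 each), a difference of 0.59 with a standard error of 0.34. The size of the Nr4a1 difference was thus close to that of Nr4a2, but its standard error was larger and the genotypes overlapped. It was 0.36 with the macrophage mean as a covariate and 0.37 without the 3 pads low in lymphocyte markers.

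Nr4a3, which encodes NOR1, ranged from 4.90 through 6.21 to 7.03 in WT and from 5.96 through 6.57 to 7.35 in R6/2 mice. R6/2 mice 2 and 5 were above every WT mouse, and the lowest value, 4.90 in WT mouse 4, was under the level limit of 5.45. The means were 6.14 ± 0.70 and 6.65 ± 0.49 (SD, n = 6 each), a difference of 0.51 with a standard error of 0.32. That difference rested in part on WT mouse 4, one of the 3 pads low in lymphocyte markers: without this mouse it was 0.27, the smallest of the values over the 23 alternative settings, and without all 3 of those pads it was 0.50. Among the 23, changes of the level filter, the probe set choice or the replicate block cannot move the difference of any member.

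**Figure D1:**
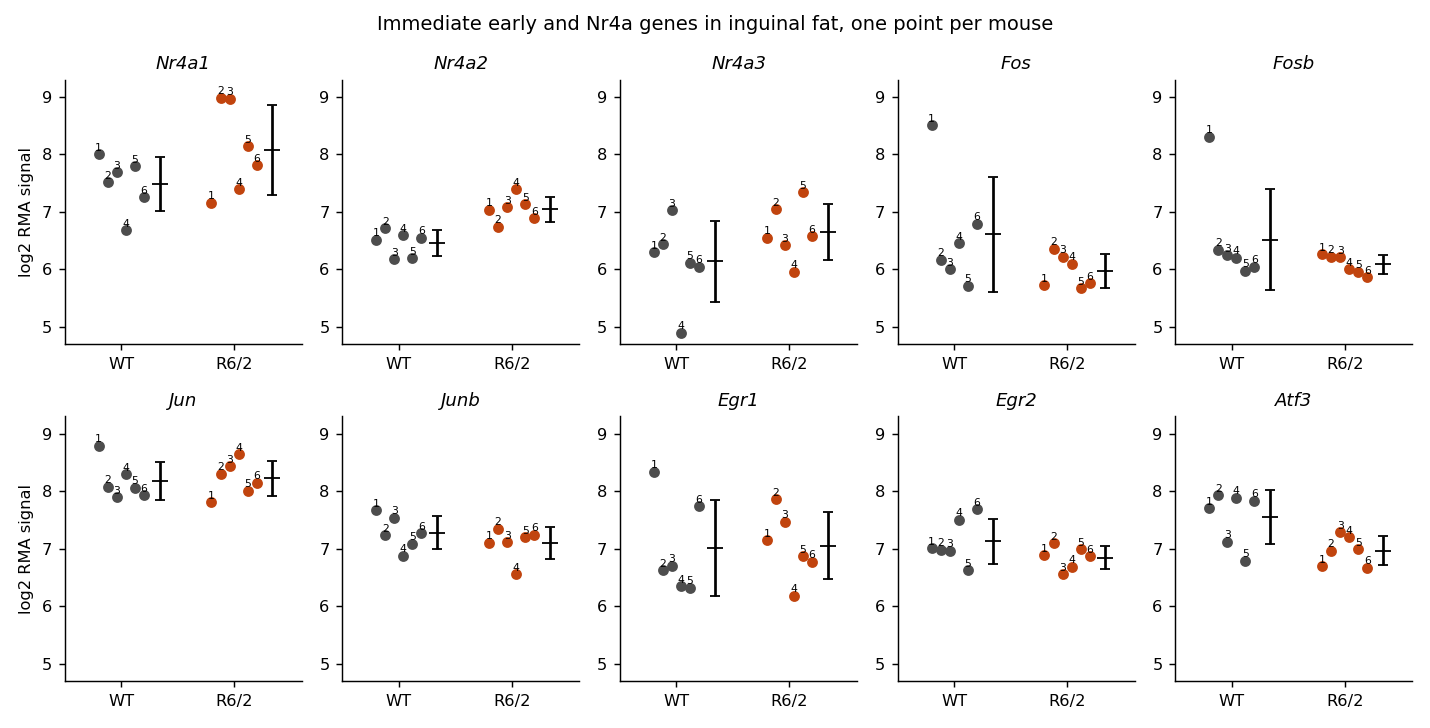
Log2 RMA signal of the 10 members in each mouse (points, with the number of the mouse), in WT (grey) and R6/2 (orange) inguinal WAT, with the mean and SD of each genotype (n = 6) beside the points. For Nr4a2 every R6/2 mouse is above every WT mouse, and for Fos and Fosb a single WT mouse, number 1, stands far above the others.

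The FOS proteins pair with JUN proteins to make AP-1, and here both Fos genes had lower means in R6/2 that rested largely on 1 WT mouse. Fos ranged from 5.72 through 6.31 to 8.51 in WT and from 5.67 through 5.93 to 6.36 in R6/2 mice, with means of 6.61 ± 1.00 and 5.97 ± 0.29 (SD, n = 6 each) and a difference of -0.64 with a standard error of 0.39. WT mouse 1 held the 8.51, while the next WT mouse was at 6.79, and 5 of 6 R6/2 mice lay within the WT range. Without that mouse the Fos difference was -0.26, and with the macrophage mean as a covariate it was -0.95. WT mouse 1 also had the lowest macrophage mean of the WT mice, 7.89. With the genotype removed, Fos and that mean had r = -0.31, and 0.73 without the 2 mice farthest in it.

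Fosb showed the same mouse standing apart more sharply. It ranged from 5.97 through 6.23 to 8.31 in WT and from 5.87 through 6.11 to 6.27 in R6/2 mice, with means of 6.52 ± 0.88 and 6.09 ± 0.17 (SD, n = 6 each). The difference was -0.43 with a standard error of 0.33, while it was -0.07 without WT mouse 1 and -0.86 with the macrophage mean as a covariate. Fosb and the macrophage mean had r = -0.49 with the genotype removed, and 0.27 without the 2 mice farthest in that mean. WT mouse 1 alone held 78.6% of the variance of Fosb within genotypes and 66.4% of that of Fos.

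The JUN subunits, which can pair with FOS or with each other, differed little on these arrays. For Jun the study itself reported significantly higher expression in R6/2 inguinal WAT by a targeted PCR array and by RT-qPCR. Jun ranged from 7.90 through 8.07 to 8.79 in WT and from 7.81 through 8.22 to 8.65 in R6/2 mice, a difference of 0.05 with a standard error of 0.17, and its sign turned under 7 of 23 alternative settings. Junb ranged from 6.88 through 7.25 to 7.67 in WT and from 6.56 through 7.16 to 7.35 in R6/2 mice, a difference of -0.18 with a standard error of 0.15. The genotypes overlapped for both genes, and for Junb WT mice 1 and 3 lay above every R6/2 mouse and R6/2 mouse 4 below every WT mouse. The Junb difference was -0.11 without WT mouse 1, -0.08 without R6/2 mouse 4 and -0.05 with array weights.

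The EGR factors likewise overlapped. Egr1 ranged from 6.32 through 6.66 to 8.34 in WT and from 6.18 through 7.01 to 7.86 in R6/2 mice, a difference of 0.04 with a standard error of 0.37 whose sign turned under 7 of 23 settings. Egr2 ranged from 6.63 through 6.99 to 7.68 in WT and from 6.55 through 6.88 to 7.09 in R6/2 mice, a difference of -0.28 with a standard error of 0.17. WT mice 4 and 6 were the highest for Egr2, above every R6/2 mouse. With the macrophage mean as a covariate, a list in which all markers had lower means in R6/2, the Egr2 difference was 0.01. It was -0.17 without WT mouse 6, -0.09 without the 3 pads low in lymphocyte markers, -0.17 with the muscle mean as a covariate and -0.15 with array weights.

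Atf3, a factor of the ATF/CREB family that cells make under many kinds of stress, had a lower mean in R6/2 pads. It ranged from 6.79 through 7.77 to 7.93 in WT and from 6.67 through 6.98 to 7.29 in R6/2 mice. WT mice 1, 2, 4 and 6 were above every R6/2 mouse, whereas WT mice 3 and 5, at 7.12 and 6.79, lay within the R6/2 range. The means were 7.55 ± 0.47 and 6.97 ± 0.25 (SD, n = 6 each), a difference of -0.58 with a standard error of 0.20, or 1.49 times lower. The value stayed between -0.73 and -0.49 over the 23 alternative settings, and was -0.49 with the macrophage mean as a covariate.

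Among the members 5 had a higher and 5 a lower mean in R6/2, and the median of the 10 differences was -0.07 against 0.01 over all genes tested. Their spread within a genotype was large: the median SD of the 10 members was 0.49 and that of all genes 0.21. Fos was more variable than 95.8% of the genes tested, Egr1 than 95.6%, Nr4a1 than 94.5%, Fosb than 94.4% and Nr4a3 than 93.7%. Nr4a2 differed from its relatives in this respect, being more variable than 53.9% of genes.

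Within a genotype the members did not vary as 1 block. WT mouse 1 was above its genotype mean for 9 of 10 members, with Egr2 as the exception, and stood 1.90 above it for Fos, 1.78 for Fosb, 1.33 for Egr1 and 0.61 for Jun. R6/2 mice 2 and 3 were above their genotype mean for 8 members each, and Nr4a1 stood 0.91 and 0.89 above it there. WT mouse 5 was above it for 1 member, Nr4a1, by 0.31.

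**Figure D2:**
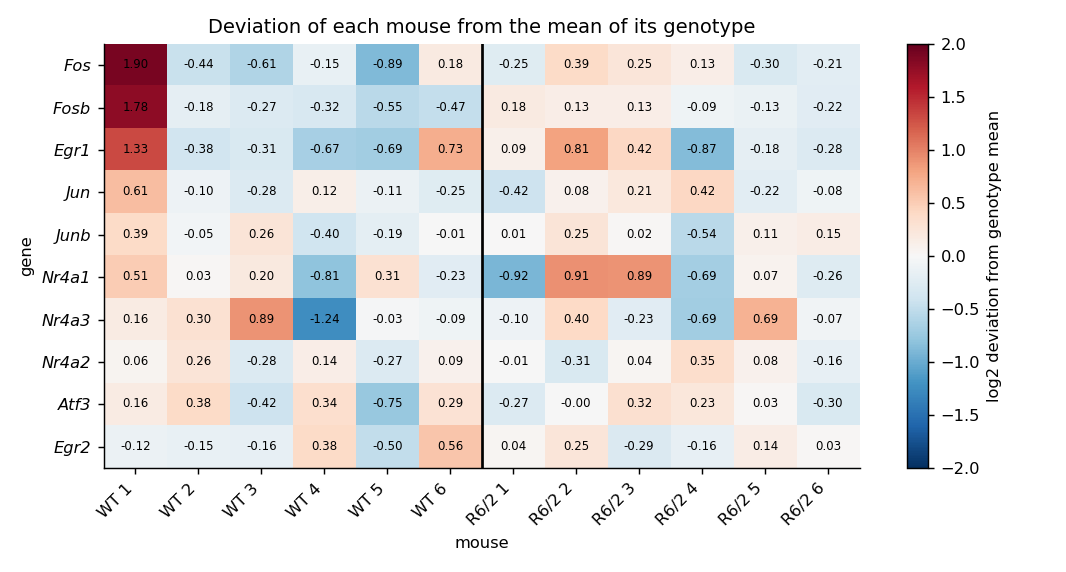
Deviation of each mouse (columns) from the mean of its genotype, on the log2 scale, for each of the 10 members (rows), with red above and blue below the mean. WT mouse 1 is highest for Fos, Fosb, Egr1, Jun and Junb, at 1.90, 1.78, 1.33, 0.61 and 0.39, but near its genotype mean for Nr4a2, at 0.06.

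Correlations of these deviations over the 12 mice were tested by an exact permutation of mice within each genotype, a measure that the genotype contrast does not enter. Of 45 pairs of members 31 had r above 0, with a median of 0.25 and a range from -0.55 to 0.89. None passed after Benjamini-Hochberg adjustment over the 45 pairs by either Pearson's or Spearman's coefficient, and 8 and 6 pairs respectively were under an unadjusted p of 0.05. The pairs below are those 8.

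Nr4a2 and Atf3, the members with the smallest standard errors among those that differed by more than 0.5, varied together although their means differed in opposite directions (r = 0.77, exact permutation p = 0.0075, adjusted p = 0.112, rho = 0.79, adjusted p = 0.217). The coefficient was 0.95 within WT and 0.52 within R6/2 mice. It was 0.84 once the 2 mice whose Nr4a2 deviations lay farthest from the median deviation were left out. In WT, mice 3 and 5 were the lowest for both genes.

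Nr4a3 and Junb had r = 0.77 (exact permutation p = 0.0056, adjusted p = 0.112, rho = 0.66, adjusted p = 0.261), with 0.77 within WT, 0.78 within R6/2 and 0.67 without the 2 farthest mice. WT mouse 4 and R6/2 mouse 4 were the lowest of their genotypes for both genes, and both are among the 3 pads low in lymphocyte markers. Without those 3 pads r was 0.45 (exact permutation adjusted p = 0.609). Nr4a1 and Junb had r = 0.60 (exact permutation p = 0.038, adjusted p = 0.229) and rho = 0.55, and Junb and Egr1 r = 0.72 (exact permutation p = 0.015, adjusted p = 0.138) and rho = 0.71.

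The remaining pairs joined Fos, Fosb, Jun and Egr1, and they leaned on WT mouse 1. Fos and Fosb had the highest coefficient, r = 0.89 (exact permutation p = 0.041, adjusted p = 0.229), but rho was 0.56 and r was 0.24 without WT mouse 1. For Fos and Egr1 r was 0.78 with all mice and 0.60 without that mouse (exact permutation adjusted p = 0.112 with all mice). Fos and Jun gave 0.74 and 0.43, and Fosb and Egr1 gave 0.68 and 0.31.

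The members were also set against the means of the marker lists, in 80 relations with the genotype removed. None passed after adjustment, and 14 were under an unadjusted exact permutation p of 0.05. Jun followed the endothelial markers (12 genes, r = 0.79, rho = 0.70, exact permutation adjusted p = 0.0796 for r), and Atf3 did so with r = 0.67 (adjusted p = 0.122). With the same list Nr4a2 had r = 0.68 (exact permutation adjusted p = 0.185) and Fos r = 0.56 (adjusted p = 0.122). Nr4a3 went the other way with r = -0.58 (exact permutation adjusted p = 0.276). Fos followed the 3 measured epithelial markers, a list too short to stand for a cell type (r = 0.82, exact permutation adjusted p = 0.0796), and WT mouse 1 had the highest mean of that list too. Nr4a3 was lower where the adipocyte markers were higher (r = -0.82, rho = -0.80, exact permutation adjusted p = 0.120), and Egr2 was higher where macrophage markers were higher (r = 0.70, rho = 0.71, adjusted p = 0.154). Also among the 14 were Fosb and Jun with the epithelial list (r = 0.69 and 0.68) and Jun with the adipocyte markers (r = 0.64). So were Nr4a3 with neutrophil and mast cell markers (r = 0.59) and Egr2 with muscle markers (r = -0.64).

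Lymphocyte markers split the pads into a low cluster of 3 and a high cluster of 9, so that their relation to the members was computed within the 9 alone. There Nr4a3 had r = 0.66 and rho = 0.78 (exact permutation p = 0.048 and 0.022, adjusted p = 0.276 and 0.226). WT mouse 4, low in these markers, had the lowest Nr4a3 of the WT mice. R6/2 mice 3 and 4, also low in them, had the lowest values of the R6/2 mice, 6.43 and 5.96. Nr4a2 had r = -0.27 with the same list (exact permutation p = 0.575), and its difference between genotypes was 0.52 in the 9 pads and 0.59 in all 12. The part of any cell type in the members' values was not tested beyond these relations and covariates.

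**Figure D3:**
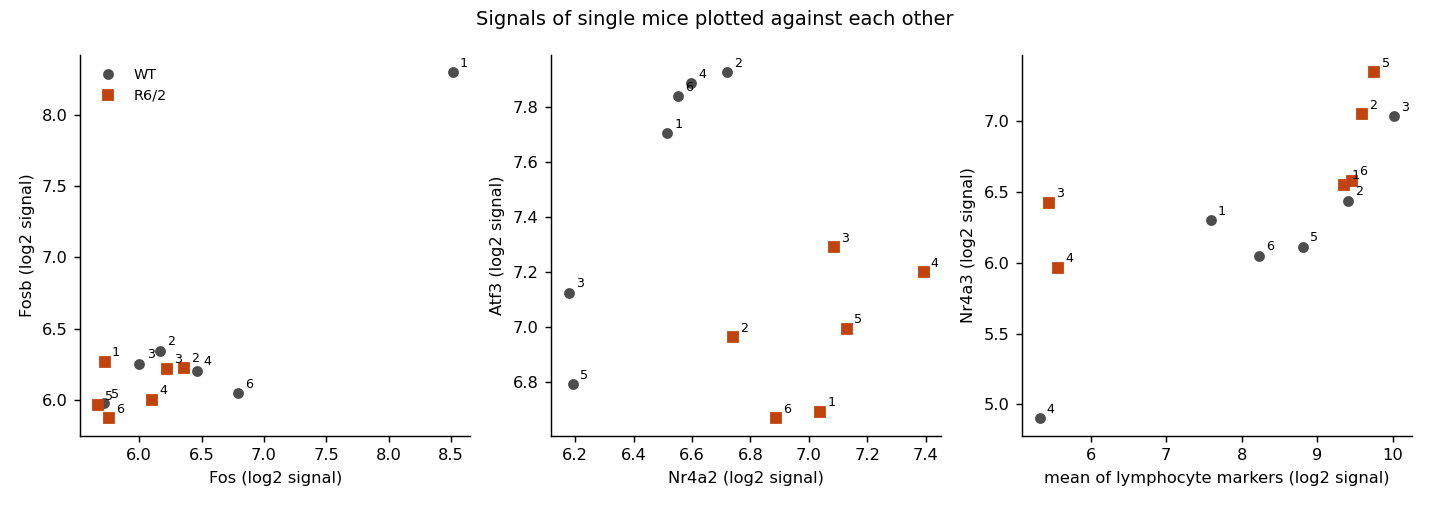
Log2 signals of single mice (WT circles, R6/2 squares, with the number of the mouse) for Fos against Fosb, Nr4a2 against Atf3, and the mean of the lymphocyte markers against Nr4a3. WT mouse 1, at 8.51 and 8.31, stands apart from the other mice for Fos and Fosb. For Nr4a2 and Atf3 the WT and R6/2 points lie apart, with r = 0.95 within WT and a looser 0.52 within R6/2.

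Other genes of the same response showed no common direction. Of 45 measured genes on a list of 48 other immediate early genes, 23 had lower and 22 higher means in R6/2, with a median difference of -0.01. In limma 0 of them passed the adjusted threshold in either direction, as did 0% of all genes lower and 0% higher, and 3 were under an unadjusted p of 0.05, a level that 3.31% of all genes reached with lower and 2.53% with higher R6/2 means. Pim1, a kinase gene, had a mean of 7.79 ± 0.30 in WT and 8.49 ± 0.55 in R6/2, with 5 of 6 R6/2 mice above every WT mouse (difference 0.70, SE 0.24, limma adjusted p = 0.710). Zfp36, whose protein binds AU-rich elements and shortens the life of many immediate early mRNAs, differed by -0.56 (SE 0.20, limma adjusted p = 0.726), and 4 of the 6 R6/2 values lay under the whole WT range. Sik1, a cyclic AMP-induced kinase that restrains CREB coactivators, differed by 0.42 (SE 0.17, limma adjusted p = 0.813). The 3 genes were 3 of 45, a share near the background.

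The remaining AP-1 and bZIP factors were steadier than the members. Their 16 measured genes ranged in difference from -0.24 to 0.21, with a median SD within genotypes of 0.18. Only Ddit3, the stress factor CHOP, was under an unadjusted p of 0.05 (-0.24, SE 0.11, limma adjusted p = 0.846). Over all genes 3.31% reached that level with lower and 2.53% with higher R6/2 means. Jund, the JUN gene that is expressed without a stimulus, differed by -0.13 (SE 0.06, limma adjusted p = 0.869), and Fosl2 by -0.21 (SE 0.11, limma adjusted p = 0.874).

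Upstream of the members, 25 kinases, factors and coactivators had a median difference of 0.03. Rps6ka5, the kinase MSK1 that phosphorylates CREB and histone H3, had a mean of 7.56 ± 0.28 in WT and 7.92 ± 0.13 in R6/2 (difference 0.36, SE 0.12, limma adjusted p = 0.720), though only 1 R6/2 mouse was above every WT mouse. Crem, whose locus encodes both activators and cyclic AMP-induced repressors, differed by 0.19 (SE 0.09, limma adjusted p = 0.854), and Rps6ka3 by -0.21 (SE 0.12, limma adjusted p = 0.874). Srf and Creb1 themselves differed by -0.01 and 0.03.

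Outputs of cyclic AMP signalling in adipocytes had higher means in R6/2 for each of the 9 measured genes, with a median of 0.25. Over all genes, 7881 of 14550 had higher means. Of the 9 genes, 2 were under an unadjusted limma p of 0.05, against 2.53% of all genes with higher means. Elovl3, a fatty acid elongase of brown fat, differed by 2.33 (SE 0.78, limma adjusted p = 0.710) and Ppargc1a, a coactivator of mitochondrial genes, by 0.58 (SE 0.24, limma adjusted p = 0.825). Genes that glucocorticoids induce had lower means for 9 of 10, with a median of -0.68, and 7 lower and 1 higher were under an unadjusted p of 0.05, against 3.31% and 2.53% of all genes. In that list Mt2 and Lcn2 were lower in every R6/2 than in every WT mouse, against 0.186% of all genes. By SAM, the study's test, which called 0.481% of all genes as lower and 0.00687% as higher at a q under 5%, 4 of the 10 were called lower (Fkbp5, Zbtb16, Mt2 and Lcn2).

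Heat shock genes, which can respond to handling of tissue, mostly had higher means in R6/2. Of 11 such genes 9 had higher means, against 7881 of 14550 over all genes, with a median of 0.13. Of the 11, 0 were under an unadjusted limma p of 0.05. The values that led the list were spread widely within R6/2, as Hspa1a showed with 6.23 ± 0.48 in WT and 6.67 ± 0.77 in R6/2 (SD, n = 6 each; limma adjusted p = 0.907). WT mouse 1, the highest for Fos, had a mean of 7.90 over the measured heat shock genes. The WT mice lay between 7.43 in mouse 3 and 8.07 in mouse 4 for that mean. Of 15 clock genes, which change with the hour of day, Nr1d1 (-0.98, SE 0.25, limma adjusted p = 0.588), Per1 (-0.46, SE 0.19, limma adjusted p = 0.836) and Cry1 (0.35, SE 0.10, limma adjusted p = 0.630) were under an unadjusted p of 0.05. That level was reached by 3.31% of all genes with lower and 2.53% with higher R6/2 means. SAM called Nr1d1 as lower, against 0.481% of all genes. Neither the hour nor handling was tested as a part of the members' differences.

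**Figure D4:**
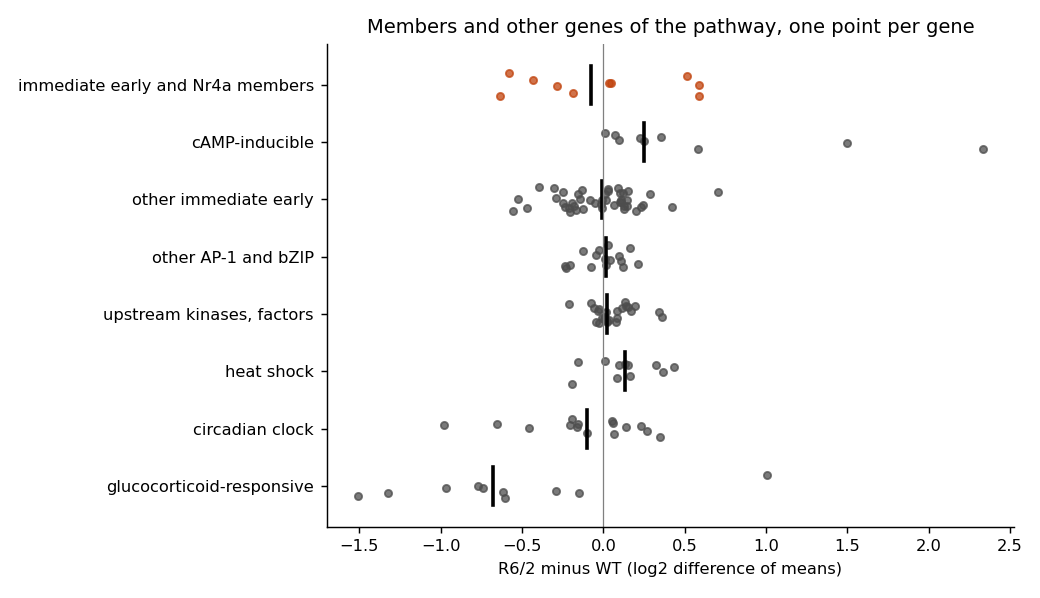
Difference of the R6/2 and WT means on the log2 scale (x axis) for the 10 members (orange) and for each measured gene of the 7 other lists (grey), with the median of each list as a black bar. The members fall on both sides of 0 with a median of -0.07. The cyclic AMP-inducible genes all lie above 0, the lowest at 0.01, and 9 of 10 glucocorticoid-responsive genes lie below 0.

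The genes most like the members were ranked by their correlation, over the 12 mice and with the genotype removed, with the mean of the 10 scaled members. This is a description over 14550 genes, and the mean was highest in WT mouse 1. Stx6, which encodes a syntaxin of the trans-Golgi network, came first with r = 0.95 and rho = 0.91, and kept r = 0.90 without WT mouse 1. Sema4c, Rab17, Nkx2-5, Tle2, Olfr1269, Klk7, Mir27a, Otol1 and Cdh26 followed with r from 0.85 down to 0.79. Without WT mouse 1 Stx6 was second and Tle2 eighth, whereas Sema4c fell to rank 305 and Otol1 to rank 1523. None of the 10 was on the list of other immediate early genes.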

How the data were processed

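Expression was measured in inguinal WAT of 12 mice, 6 R6/2 and 6 WT, with 1 Affymetrix Mouse Gene 2.0 ST array each. The authors ran RMA over the 12 arrays with Affymetrix Expression Console 1.1.2 and deposited log2 signals for 41345 probe sets, of which 23521 have 1 gene symbol in the platform's annotation, 1820 several and 16004 none. The replicate numbers are those of the labels, and p-values measure the spread between mice.

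A single-symbol probe set was used if either genotype's mean exceeded the median signal of symbol-free probe sets in that genotype (5.45 for WT, 5.44 for R6/2), which left 15328 probe sets. For the 595 genes with several, the median was taken, giving 14550 genes. R6/2 minus WT was fitted with limma 3.58.1 in R 4.3.3, adjusting p over all of them by Benjamini-Hochberg (threshold 0.05). SAM, the method named by the study, was run as an alternative on 100 drawn assignments of the mice. Other alternatives were the level filter, probe set choice, normalization, variance model, array weights, the replicate number as a block, marker means as covariates and leaving out each mouse. The exact permutation tests of correlations, two-sided, used all 518400 orders of mice within genotypes over 12 mice and 2880 over 9 pads. The scripts ran in Python 3.11.15 and were tested on simulated data.

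The members, the gene lists and the rule for named genes were chosen with earlier results of these data known. The rule took all members, 3 genes per list by smallest limma p, and the 10 genes most like the members. Further named list genes and the use of the 9 pads were chosen after their values were seen. Promoters came from RefSeq (GRCm38.p6), from the start site farthest upstream of each gene.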

Additional observations from a re-analysis of the deposited data

Results flagged for a closer look

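In the 20 sets of 6 values (10 members in both genotypes), a single mouse stood far from the others in 2, and chance alone gives about 1 in 20. For Fosb, WT mouse 1 had 8.31, a gap to the next mouse that took 0.841 of the whole range of the WT mice. For Junb, R6/2 mouse 4 had 6.56, with a gap of 0.694 of the range of the R6/2 mice.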

How the results depend on the processing

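Of the 10 members, 7 kept the sign of their difference under all 23 alternative settings, while Jun and Egr1 turned under 7 settings each and Egr2 under 1. Some of the 23 could not move a member's difference and are no check of its sign. These were the changes of level filter and probe set choice, since each member had 1 probe set that passed every filter. The replicate block was another, since each number occurs once per genotype. Nr4a2 ranged from 0.52 to 0.65, Nr4a1 from 0.36 to 0.77, Nr4a3 from 0.27 to 0.69, Fos from -0.95 to -0.26, Fosb from -0.86 to -0.07, Junb from -0.26 to -0.05, Egr2 from -0.38 to 0.01 and Atf3 from -0.73 to -0.49. The count of members whose genotypes did not overlap was 1 and became 0 after quantile normalization. Over all genes limma passed 0, against 46 with array weights, 71 by SAM, 16 with the lymphocyte mean as a covariate and 9 without the 3 pads low in lymphocyte markers, a setting chosen after seeing the data. Leaving out 1 mouse gave 0 to 23 genes, with 23 without R6/2 mouse 4 and 1 each without WT mouse 1 and WT mouse 3. The other immediate early genes under an unadjusted p of 0.05 were 3, against 10 with array weights, 6 with the lymphocyte and 0 with the macrophage mean as a covariate, and 8 without the 3 pads; leaving out 1 mouse gave 2 to 7, with 7 without R6/2 mouse 4. The causes were not tested. With the replicate number as a block 2 genes passed, but the numbers do not pair the mice: the correlations between same-numbered WT and R6/2 mice were -0.32, 0.63, -0.78, 0.78, 0.07 and -0.27. After quantile normalization the lower and higher means were 26 and 19 for the other immediate early genes, 13 and 12 for the upstream list (8 and 17 as deposited, with a median that turned from 0.03 to -0.003), 9 and 7 for the other AP-1 and bZIP factors (7 and 9 as deposited, with a median that turned from 0.02 to -0.01), 3 and 8 for the heat shock genes and 14 and 1 for the adipocyte markers (12 and 3 as deposited), and the counts for the cyclic AMP-inducible, glucocorticoid-responsive, macrophage and muscle lists were the same. No pair of members passed the adjusted threshold under any setting tried. The 6 mice per genotype limit the precision, and for low signals such as Fos in R6/2 pads the array gives no depth.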
